A study of Mus musculus with 9 samples.

Results

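The SLC25 carriers are the family of mitochondrial transport proteins encoded by the Slc25a genes. Its members were taken as every gene symbol made of Slc25a and a number, which gave 47 of the 24421 symbols counted. The uncoupling proteins Ucp1 to Ucp3 and the MTCH proteins, which belong to the same protein family under other names, stayed outside this rule and are given separately. RNA was sequenced from whole liver of 5-week-old C57BL/6J mice of 2 groups, wildtype controls (WT, 5 libraries) and OGT-deficient mice (4 libraries). OGT is the enzyme that attaches single N-acetylglucosamine sugars to nuclear, cytoplasmic and mitochondrial proteins. All mice had been fasted for 6 h, and both sexes were used, though the sex of each mouse is not given in the sources used here. Nor are the promoter or cell type that drove the deletion, and whole liver holds hepatocytes together with bile duct, stellate, endothelial and immune cells.

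SLC25 carriers sit mostly in the inner mitochondrial membrane, which is largely closed to charged metabolites apart from these and other transport proteins. Each is built from repeated membrane-spanning modules around a central binding site and moves a nucleotide, phosphate, amino acid, carboxylate, cofactor or metal across the membrane, often in exchange for another solute. In liver they link the cytosol to ATP synthesis, urea formation, gluconeogenesis, fatty acid oxidation and haem synthesis.

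Total counts per library ran from 32337861 to 54130901. Values are counts per 1000000 (CPM) on TMM-scaled library sizes, and 3 counts correspond to 0.0572 to 0.104 CPM. These values are not plain shares of the RNA counted, because each library's total was multiplied by its TMM factor. The factor lay between 0.880 and 0.915 for every WT library, whereas OGT-deficient libraries had factors from 1.09 up to 1.22. A CPM value therefore lies above the plain share for WT libraries and below it for OGT-deficient ones. Whether the groups overlap for a single gene is judged on this scale. Ogt itself stood at 51.1 to 73.1 CPM in WT livers and 14.3 to 20.6 CPM in OGT-deficient liver, with a log2 fold change of -1.86 (adjusted p = 3.528e-07, edgeR quasi-likelihood test). Non-unique alignments per assigned read differed between the groups, at 0.314 to 1.02 in the WT libraries and 0.205 to 0.224 in the others. The cause of this difference was not tested. Hepatocyte markers were lower in OGT-deficient liver (10 of 12 tested, summed level 113160 to 133500 CPM in WT livers and 51993 to 68148 CPM in OGT-deficient). Bile duct markers were higher (11 of 11, 34.1 to 65.6 and 181 to 329 CPM), as were stellate markers (10 of 11, 160 to 397 and 827 to 1241 CPM). Fewer hepatocytes and less carrier RNA per hepatocyte cannot be told apart in whole liver, and the part of these shifts in the results that follow was not tested.

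Most carriers that changed were lower in OGT-deficient liver. Of the 47 members, 42 had enough counts to test. Among them 22 fell, 4 rose and 16 did not pass (adjusted p under 0.05, edgeR, Benjamini-Hochberg over 14104 genes). The changed share, 61.9%, was close to the 61.1% of all tested genes that changed. The direction differed from that of all genes: 52.4% of tested carriers fell against a background of 29.4%, and 9.52% rose against 31.6%. Counts of called genes in every gene list of this report are to be read against these all-gene shares. The median log2 fold change was -0.39 over the 42 carriers and 0.02 over all tested genes. At least a 2-fold change was seen for 8 carriers, 2 of them higher and 6 lower, where 21.6% of all genes changed that much (14.8% higher, 6.8% lower). The groups did not overlap for 23 of the 42 carriers, and for 51.3% of all tested genes. With upper-quartile scaling, which moved the median of all genes from 0.02 to 0.14, 7 carriers rose and 19 fell, and 62.5% rather than 51.8% of all called genes were higher.

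**Figure D1:**
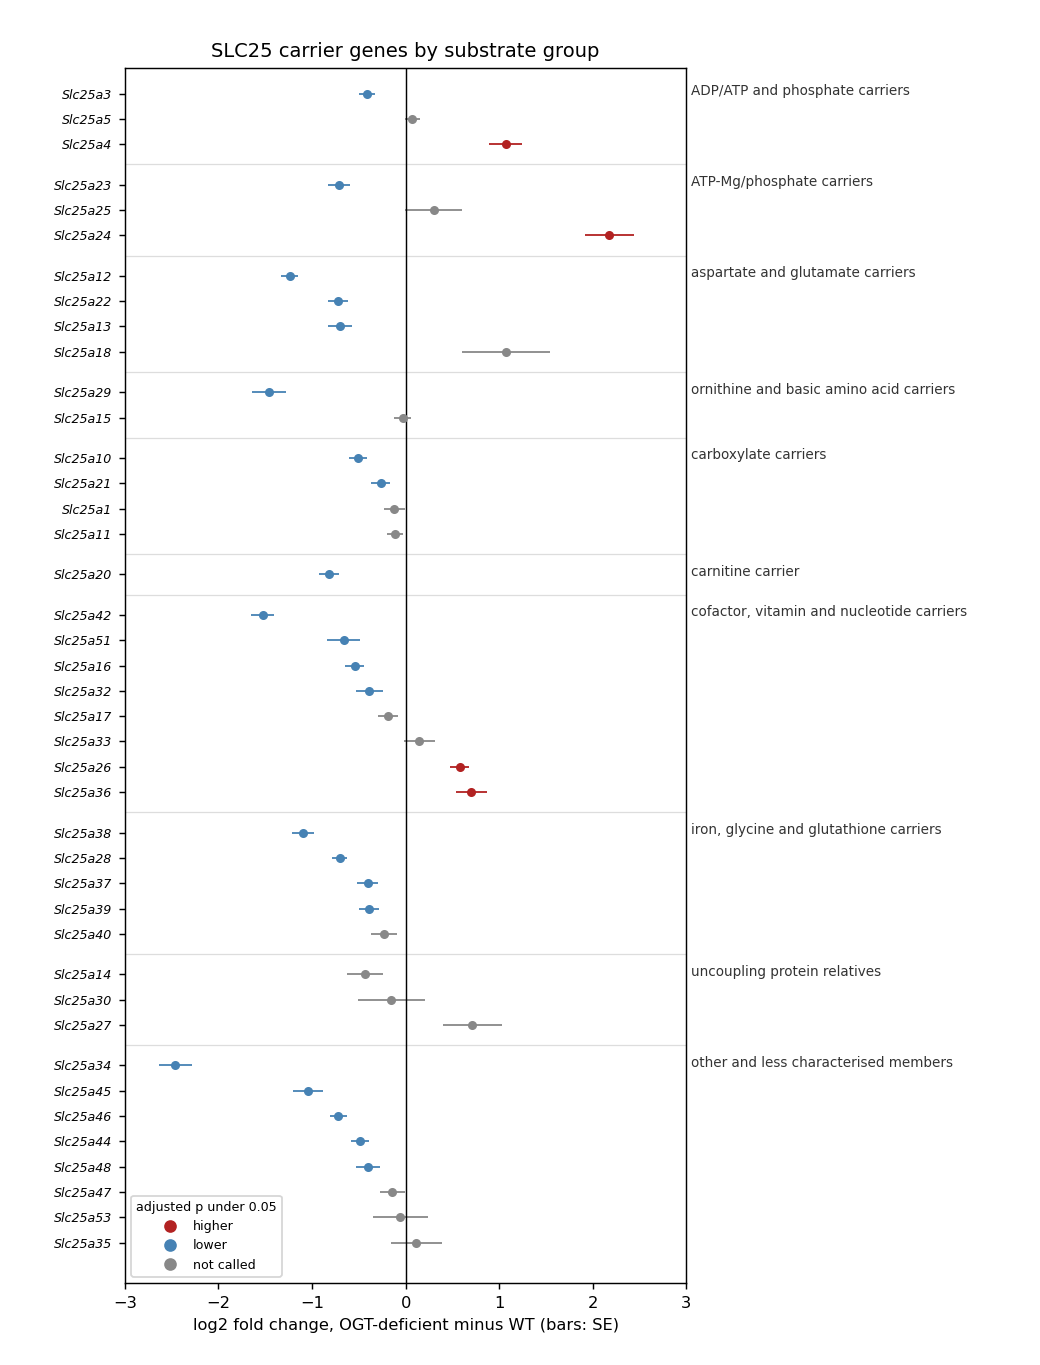
Log2 fold change of OGT-deficient over WT liver for 41 tested SLC25 carriers, grouped by substrate, with the standard error as bars and called genes marked by colour. Called carriers lie mostly left of 0, with Slc25a34 lowest at -2.46 and Slc25a24 highest at 2.18.

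The direction went together with the level of the gene. When the tested carriers were split at their median level of 34.2 CPM, averaged over all libraries, 13 of the 21 above it fell and 0 rose. Among all genes above that level, 44.6% fell and 18.3% rose. Below it, 9 of 21 carriers fell and 4 rose, whereas 22.9% of all genes below it fell and 37.4% rose. Over all genes the median difference was -0.19 above and 0.17 below this level on the log2 scale.

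Taken as a sum, the carriers stood at 4771, 5072, 5228, 5113 and 5257 CPM in WT libraries 1 to 5 and 3798, 4285, 3842 and 4499 CPM in OGT-deficient libraries 1 to 4. On this scale every OGT-deficient library lay below every WT library. The order rests on the TMM factors, which were higher in every OGT-deficient library. On library sizes without them the groups overlap, and the mean of the OGT-deficient libraries is slightly the higher. The group means were 5088 ± 193 CPM (SD, n = 5) and 4106 ± 342 CPM (SD, n = 4). The difference was -982.24 CPM, and -599.73 CPM with upper-quartile scaling.

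Levels were compared between carriers per kilobase of exon. Slc25a47, a carrier found mainly in hepatocytes, led in WT at 363 ± 37.0 CPM per kb, followed by Slc25a5, the main ADP/ATP carrier of this tissue, at 337 ± 24.0. Their ranges over WT libraries met, so these neighbours did not differ beyond their spread. Next came Slc25a39, a glutathione carrier, at 247 ± 14.3, the phosphate carrier Slc25a3 at 169 ± 11.1 and the dicarboxylate carrier Slc25a10 at 156 ± 7.80 CPM per kb. Slc25a10 and the citrate carrier Slc25a1, at 152 ± 14.2, again lay within each other's spread. In OGT-deficient liver Slc25a5 came to 354 ± 11.7 and Slc25a47 to 329 ± 67.7 CPM per kb, so that they exchanged places within their spread, and Slc25a39, at 188 ± 27.6, stayed in the third place. Of the 50-base stretches in the exons of Slc25a5, 46.6% also occur at other loci, of which Gm5560 shares the most, so its level is uncertain.

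**Figure D2:**
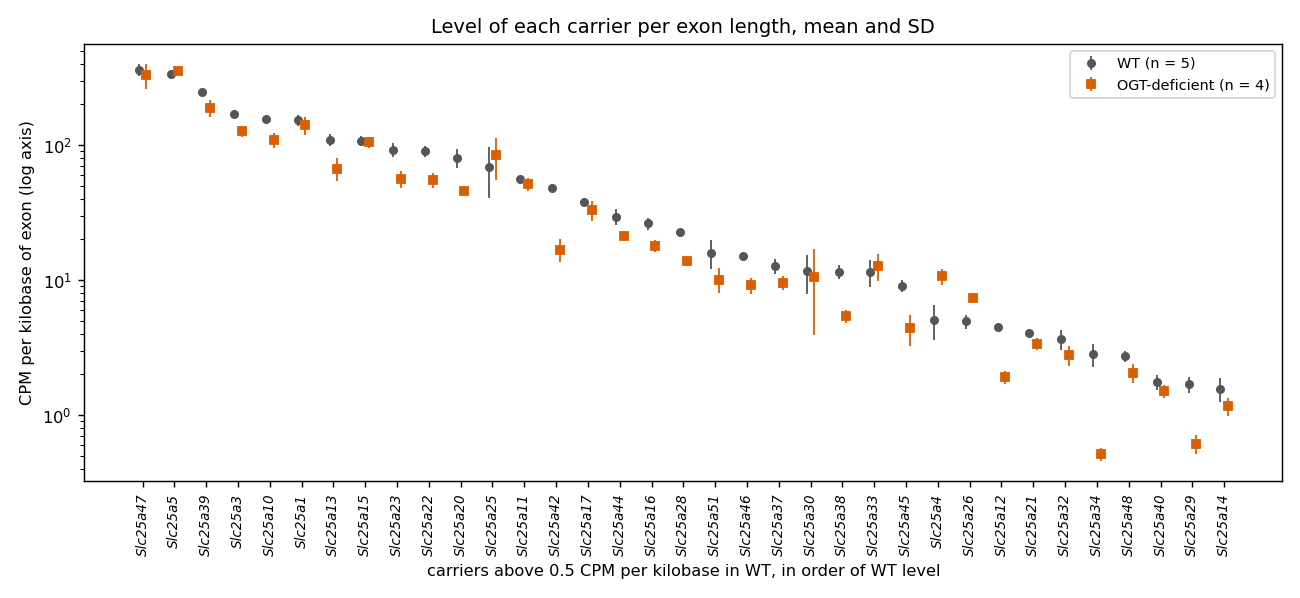
Mean level of each SLC25 carrier in CPM per kilobase of exon on a log axis, with the SD over libraries as bars, for WT (n = 5, circles) and OGT-deficient liver (n = 4, squares), ordered by the WT mean and drawn for 35 carriers above 0.5 in WT. WT means span from Slc25a47 at 363 down to Slc25a14 at 1.557 CPM per kb.

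The ADP/ATP carriers exchange the ATP made in the matrix for cytosolic ADP, and the phosphate carrier brings in the phosphate used to make it. Slc25a5 was at 390.0, 458, 392, 408 and 438 CPM in WT libraries 1 to 5 and 432, 427, 459.8 and 435 CPM in OGT-deficient libraries 1 to 4. The groups overlapped, and the log2 fold change was 0.07 ± 0.08 (SE, adjusted p = 0.4497, edgeR). Slc25a4, the isoform typical of heart and muscle, was at 13.4, 11.7, 8.81, 7.18 and 7.30 CPM in WT livers and 24.7, 18.5, 19.2 and 19.4 CPM in OGT-deficient liver. All 4 OGT-deficient values exceeded all 5 WT values, and the gene rose by 1.07 ± 0.18 on the log2 scale (SE, adjusted p = 0.0002264, edgeR). Its share of the summed ADP/ATP carriers went from 2.28 ± 0.682% (SD, n = 5) to 4.46 ± 0.640% (SD, n = 4). Among WT libraries Slc25a4 was lowest in libraries 4 and 5, which also had the most non-unique alignments per assigned read, 1.02 and 0.955, against 0.314 to 0.624 in the others, and the part of that in the result was not tested.

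Slc25a3, the phosphate carrier, was at 302, 334, 311, 351 and 346 CPM in WT livers and 228, 259, 228 and 271 CPM in OGT-deficient liver. The groups were apart, and it fell by 0.42 ± 0.09 on the log2 scale (SE, adjusted p = 0.001133, edgeR). The ATP synthase, which uses the substrates of both carriers, was lower for 12 of its 15 tested nuclear subunit genes and higher for 0, and the median of the list was -0.66 on the log2 scale. Its subunit Atp5d fell from 263 to 76.5 CPM, and Atp5e and Atp5g1 fell by 1.26 and 0.99 on the log2 scale.

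The calcium-regulated ATP-Mg/phosphate carriers adjust the size of the adenine nucleotide pool in the matrix. Of their 3 tested members 1 fell, 1 rose and 1 did not pass. Slc25a23, with Slc25a25 the abundant form here, was at 331, 254, 316, 350.2 and 297 CPM in WT livers and 155, 220.0, 188 and 194 CPM in OGT-deficient liver. It was lower in every OGT-deficient library and fell by 0.71 ± 0.12 on the log2 scale (SE, adjusted p = 0.0002038, edgeR). Slc25a24 stood at 1.79, 2.02, 1.23, 1.32 and 1.67 CPM in WT against 12.1, 5.34, 6.67 and 5.14 CPM in OGT-deficient liver. Library 1 was the highest of the OGT-deficient group, and all 4 lay above the WT libraries. Its rise of 2.18 ± 0.26 on the log2 scale (SE, adjusted p = 1.623e-05, edgeR) was the largest rise among the tested carriers. The summed bile duct markers were at 329, 181, 305 and 270 CPM in OGT-deficient libraries 1 to 4, and hepatocyte markers were lowest in library 1, at 51993 CPM. The part of these markers in the Slc25a24 values was not tested. Slc25a25 varied widely, from 125 to 391 CPM in WT livers and from 234 to 509 CPM in OGT-deficient liver, and did not pass (log2 fold change 0.30, adjusted p = 0.4103). Its ratios to Slc25a23 and to Slc25a24 did not pass either (adjusted p = 0.05195 for each, exact permutation test). Slc25a24 remained a small fraction of the group, 0.289 ± 0.117% of the counts of these carriers in WT and 1.41 ± 0.674% in OGT-deficient liver.

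**Figure D3:**
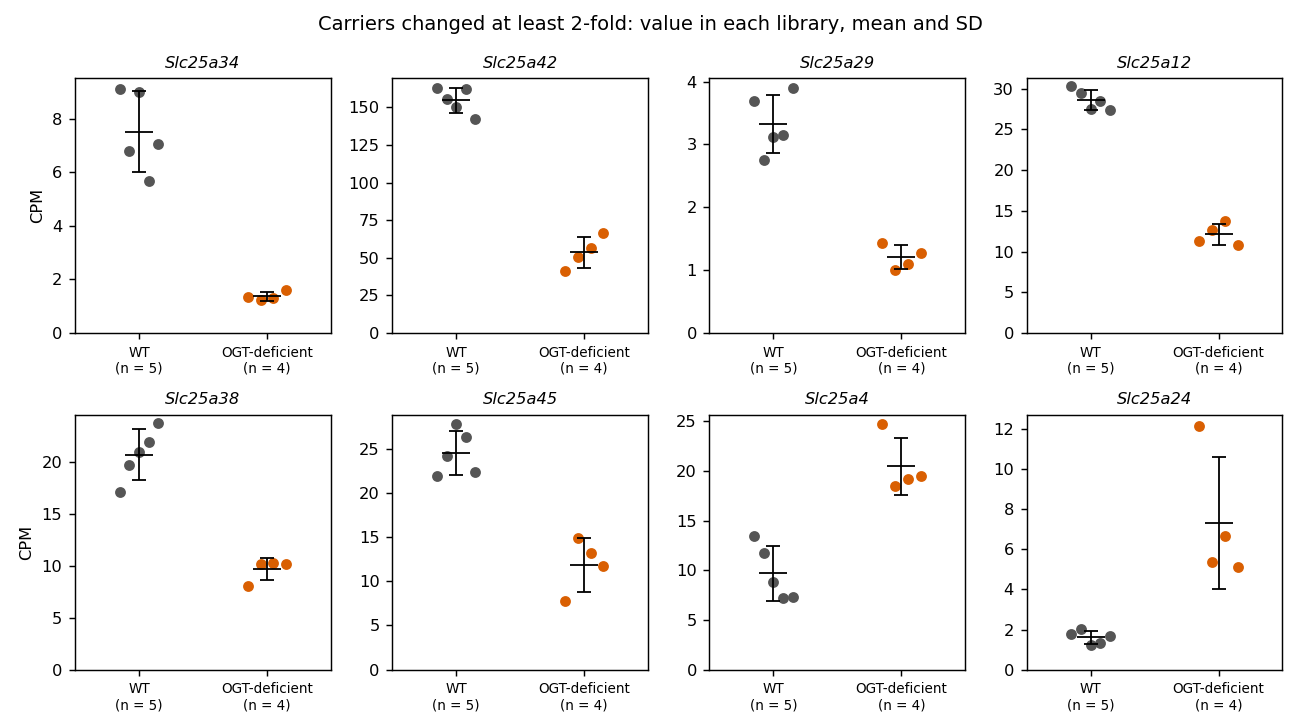
CPM in every library, on linear axes from 0, for the 8 SLC25 carriers with an adjusted p under 0.05 and at least a 2-fold change, with the group mean and SD in black. WT and OGT-deficient libraries do not overlap for any of the 8, with Slc25a4 and Slc25a24 higher in OGT-deficient liver and the other 6 lower.

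The aspartate/glutamate carriers export aspartate from the matrix and are a step of the malate-aspartate shuttle, which brings cytosolic NADH equivalents into mitochondria. The liver form Slc25a13, or citrin, was at 299, 380.1, 309, 350.1 and 362 CPM in WT livers and 170.3, 217, 187 and 262 CPM in OGT-deficient liver, without overlap. It fell by 0.70 ± 0.13 on the log2 scale (SE, adjusted p = 0.0003925, edgeR). The brain and muscle form Slc25a12, or aralar, was less abundant, at 30.3, 29.5, 27.5, 28.5 and 27.3 CPM in WT, and was at 11.3, 12.7, 13.7 and 10.8 CPM in OGT-deficient liver. All OGT-deficient libraries lay far below the narrow WT range, and the gene fell by 1.24 ± 0.09 (SE, adjusted p = 2.553e-07, edgeR). Aralar supplied 7.82 ± 0.884% of the counts of this pair in WT and 5.63 ± 1.23% in OGT-deficient liver. The glutamate carrier Slc25a22 fell as well, from 261 ± 24.998 to 158 ± 20.3 CPM, while its relative Slc25a18, at 0.223 ± 0.144 and 0.453 ± 0.172 CPM, did not pass (adjusted p = 0.06284), though it did under 4 of the 17 alternatives, with higher values in OGT-deficient liver.

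Of the 4 enzymes of the malate-aspartate shuttle, both cytosolic ones fell. The malate dehydrogenase Mdh1 fell from 519 ± 48.4 to 98.4 ± 8.46 CPM, or by 2.40 on the log2 scale (adjusted p = 4.548e-09, edgeR), and the aspartate aminotransferase Got1 from 372 to 178 CPM. The mitochondrial malate dehydrogenase Mdh2 was at 197 and 204 CPM and did not pass. The shuttle's other carrier, the oxoglutarate carrier Slc25a11, was at 95.3 ± 4.62 and 88.1 ± 10.1 CPM and did not pass either (adjusted p = 0.2741), though 8.92% of its exon bases overlap another gene.

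Ornithine and basic amino acid carriers feed the urea cycle, whose first steps lie in the matrix. The ornithine carrier Slc25a15 was at 369 ± 29.8 CPM in WT livers and 362 ± 33.1 CPM in OGT-deficient liver, a log2 difference of -0.03 (adjusted p = 0.7917, edgeR). The urea cycle enzymes around it were lower: 5 of 5 tested fell (median -0.86 on the log2 scale), among them the arginase Arg1 from 1874 to 768 CPM, the argininosuccinate lyase Asl from 586 to 305 CPM and the ornithine transcarbamylase Otc from 491 to 271 CPM. Ass1, the remaining member of that list, was at 0.144 CPM and could not be tested, and 55.31% of its 50-base stretches are shared with other loci, so this value cannot be read as its level. Slc25a29, a carrier of arginine, lysine and ornithine, was at 3.70, 2.75, 3.11, 3.16 and 3.90 CPM in WT livers and 1.43, 1.01, 1.11 and 1.27 CPM in OGT-deficient liver. The groups were apart, and it fell by 1.46 ± 0.19 (SE, adjusted p = 2.495e-05, edgeR).

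Slc25a29 lies beside the most abundant carrier in WT, on the opposite strand. By GENCODE (GRCm38) Slc25a29 lies at chr12:108825873-108835883 on the minus strand and Slc25a47 at chr12:108836046-108856815 on the plus strand. These gene spans are 162 bases apart. The RefSeq start of Slc25a47 lies inside its GENCODE span, so a shared upstream region is not shown. Slc25a47 was at 713, 679, 735, 573 and 748 CPM in WT livers and 609.9, 511, 573 and 809 CPM in OGT-deficient liver. The groups overlapped, with the highest and the lowest library both OGT-deficient, and the log2 fold change was -0.14 ± 0.13 (SE, adjusted p = 0.3717, edgeR). Without OGT-deficient library 4 it was -0.31 (adjusted p = 0.0317). Slc25a47 made up 13.6 ± 1.43% of the summed carriers in WT and 15.2 ± 2.53% in OGT-deficient liver.

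Carboxylate carriers move citrate, malate, succinate and oxoglutarate. Slc25a10, which exchanges dicarboxylates for phosphate, was at 292, 325, 307, 333 and 317 CPM in WT livers and 185, 215, 241 and 245 CPM in OGT-deficient liver. It was lower in all 4 OGT-deficient libraries and fell by 0.51 ± 0.09 (SE, adjusted p = 0.0005005, edgeR). The citrate carrier Slc25a1, which delivers the carbon for cytosolic fatty acid synthesis, was at 254 ± 23.6 and 234 ± 36.9 CPM and did not pass (adjusted p = 0.3741). Of 6 tested genes of citrate use and fatty acid synthesis, 4 rose and 1 fell. The acetyl-CoA carboxylase Acaca rose from 157 to 281 CPM, with 52.56% of its 50-base stretches shared with other loci, and the elongase Elovl6 rose from 109 to 167 CPM. The desaturase Scd1 fell from 5135 to 2654 CPM. The oxodicarboxylate carrier Slc25a21 went from 11.2 ± 0.723 to 9.34 ± 1.01 CPM (adjusted p = 0.03765), a call lost under 8 of the 17 alternatives.

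The carnitine/acylcarnitine carrier Slc25a20 brings fatty acids into the matrix for oxidation. It ranged from 125 to 174 CPM in WT livers and from 79.3 to 83.8 CPM in OGT-deficient liver, and fell by 0.82 on the log2 scale (adjusted p = 3.371e-05, edgeR). Of its 50-base stretches, 9.96% are shared with another locus. Of 10 tested genes of carnitine handling and fatty acid oxidation, 7 fell and 1 rose, with a median of -0.32. Over all tested genes 29.4% fell and 31.6% rose. The acyltransferase Cpt2, which acts just after the carrier, fell from 127 to 78.9 CPM, and the plasma membrane carnitine transporter Slc22a5 fell from 28.1 to 14.0 CPM, with 27.15% of its stretches shared. The acyl-CoA dehydrogenase Acadvl, with 42.85% of its exon bases overlapping another gene, fell from 559 to 295 CPM. The carnitine acetyltransferase Crat rose from 23.7 to 46.1 CPM.

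Of 9 cofactor and nucleotide carriers 4 fell, 2 rose and 3 did not pass. The called share, 66.7%, was near the 61.1% of all tested genes. Slc25a42 brings coenzyme A into the matrix. It was at 163, 156, 150.4, 162 and 142 CPM in WT livers and 41.5, 50.4, 56.4 and 66.4 CPM in OGT-deficient liver. The lowest WT value exceeded the highest OGT-deficient value, and the gene fell by 1.53 ± 0.12 on the log2 scale (SE, adjusted p = 5.3e-07, edgeR). Slc25a16, also linked to coenzyme A, fell less, from 82.5 ± 8.63 to 56.6 ± 6.12 CPM (adjusted p = 0.0004536). The NAD carrier Slc25a51 ranged from 51.2 to 90.2 CPM in WT livers and 34.9 to 56.0 CPM in OGT-deficient liver, with overlap, and fell by 0.66 (adjusted p = 0.005993). Its 2 highest WT values were those of libraries 4 and 5, again the libraries with the most non-unique alignments. The same held for the called carriers Slc25a3, Slc25a16, Slc25a38 and Slc25a48, and the part of those alignments in the results was not tested.

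Others of this group rose or did not pass. Slc25a26, which imports S-adenosylmethionine for methylation in the matrix, rose from 9.50 ± 1.14 to 14.2 ± 0.771 CPM (log2 fold change 0.58, adjusted p = 0.0003872, edgeR). The pyrimidine nucleotide carrier Slc25a36 rose from 2.35 ± 0.270 to 3.82 ± 0.644 CPM (adjusted p = 0.002576), with 11.84% of its 50-base stretches shared with other loci. Its relative Slc25a33 was at 21.6 ± 4.77 and 23.9 ± 5.40 CPM and did not pass (adjusted p = 0.4607). The peroxisomal carrier Slc25a17, at 64.9 ± 4.58 and 56.9 ± 9.42 CPM, did not pass (adjusted p = 0.1445), except without OGT-deficient library 1 (0.04362). The folate and FAD carrier Slc25a32 went from 21.5 ± 3.63 to 16.4 ± 2.77 CPM with overlapping groups (adjusted p = 0.03362), and lost its call under 6 alternatives. Around it, 4 of 8 tested genes of mitochondrial folate metabolism rose and 2 fell, where 31.6% of all tested genes rose and 29.4% fell. The dehydrogenase Mthfd2 rose from 1.43 to 6.84 CPM, and the glycine cleavage subunit Amt fell from 38.7 to 13.4 CPM. The serine hydroxymethyltransferase Shmt2 fell from 247 to 169.6 CPM.

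Carriers that serve iron, glycine and glutathione were lower in 4 of 5 cases. Slc25a38, which brings in glycine for haem synthesis, was at 17.1, 19.7, 20.955, 21.9 and 23.7 CPM in WT livers and 8.07, 10.2, 10.2 and 10.2 CPM in OGT-deficient liver. The groups were apart, and it fell by 1.10 ± 0.11 (SE, adjusted p = 4.69e-06, edgeR). Its WT values were also highest in libraries 4 and 5. Slc25a39, the abundant glutathione carrier, was at 411, 391, 435, 446 and 396 CPM in WT livers and 263, 317, 311 and 377 CPM in OGT-deficient liver. All OGT-deficient libraries were below the WT range, and it fell by 0.39 ± 0.10 (SE, adjusted p = 0.005171, edgeR). Its relative Slc25a40, at 4.89 ± 0.593 and 4.17 ± 0.481 CPM, did not pass (adjusted p = 0.1758).

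Both mitoferrins, the iron importers, fell. Slc25a28, the form of non-erythroid tissues, went from 34.6 ± 2.35 to 21.2 ± 1.63 CPM (log2 fold change -0.71, adjusted p = 1.35e-05, edgeR). Slc25a37, the form best known from red cell precursors, went from 52.8 ± 6.70 to 39.8 ± 4.83 CPM (log2 fold change -0.40, adjusted p = 0.006366), with 5.67% of its 50-base stretches shared with other loci. Of 9 tested haem synthesis genes 6 fell and 0 rose, with a median of -0.60. Their called share was 66.7%, against 61.1% of all tested genes (29.4% lower, 31.6% higher). The coproporphyrinogen oxidase Cpox fell from 255 to 142 CPM, the protoporphyrinogen oxidase Ppox by 0.79 on the log2 scale and the ferrochelatase Fech from 186 to 121 CPM. The summed erythroid markers lay at 119 to 178 CPM in WT livers and 82.1 to 182 CPM in OGT-deficient liver. Of those 11 symbols, 5 globin genes are listed at 0 in every library, where 58.26 to 86.93% of the 50-base stretches of Hba-a1, Hba-a2, Hbb-bs and Hbb-bt are shared with other loci, so these zeros cannot be read as absence of red cell RNA. Of the 4 tested markers 2 fell and 0 rose: the erythroid transcription factor Klf1 fell from 6.37 to 1.12 CPM (adjusted p = 1.812e-06, edgeR) and the carbonic anhydrase Car1 from 6.52 to 4.11 CPM (adjusted p = 0.006591), both without overlap. Alas2, the erythroid first enzyme of haem synthesis and most of that sum, was at 132 and 128 CPM and did not pass. The part of these markers in the mitoferrin values was not tested.

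The relatives of the uncoupling proteins did not pass. Slc25a30 was uneven within the OGT-deficient group, at 19.7, 65.955, 16.7 and 47.7 CPM, with group means of 41.6 ± 13.3 in WT and 37.5 ± 23.5 CPM (adjusted p = 0.726). Slc25a14 was at 2.82 ± 0.565 and 2.0997 ± 0.311 CPM, and Slc25a27 at 0.849 ± 0.336 and 1.38 ± 0.399 CPM (adjusted p = 0.06839 and 0.06372, edgeR). Slc25a27 passed under 5 of the 17 alternatives, with higher values in OGT-deficient liver, and Slc25a14 under 1, with lower values. Of the family members with other names, Ucp2 rose from 42.3 ± 4.99 to 71.6 ± 9.71 CPM (log2 fold change 0.76, adjusted p = 7.262e-05). Mtch1 fell from 93.2 to 57.4 CPM and Mtch2 from 142 to 109 CPM, both outer membrane proteins.

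Among the remaining members 5 of 8 fell, and Slc25a34 fell the most of all tested carriers. Slc25a34, whose substrate is less well defined, was at 9.10, 6.78, 9.005, 5.65 and 7.03 CPM in WT livers and 1.33, 1.23, 1.31 and 1.59 CPM in OGT-deficient liver. The OGT-deficient libraries were tightly grouped far below WT, and the log2 fold change was -2.46 ± 0.18 (SE, adjusted p = 2.897e-07, edgeR). Its closest relative Slc25a35 was at 1.03 ± 0.202 and 1.11 ± 0.381 CPM and did not pass (adjusted p = 0.7342), with 31.3% of its exon bases overlapping another gene. Slc25a45 was at 21.9, 24.1, 27.8, 26.3 and 22.4 CPM in WT livers and 7.74, 14.8, 13.1 and 11.8 CPM in OGT-deficient liver. The groups were apart, and it fell by 1.04 ± 0.16 (SE, adjusted p = 0.000104, edgeR). Slc25a46, an outer membrane protein of mitochondrial shape, fell from 65.7 ± 1.55 to 39.9 ± 5.31 CPM (adjusted p = 2.069e-05). Slc25a44, a carrier of branched-chain amino acids, fell from 106 ± 14.0 to 75.5 ± 1.89 CPM (adjusted p = 0.0009012). Slc25a48, linked to choline transport, went from 9.18 ± 0.890 to 6.95 ± 1.11 CPM with overlapping groups (adjusted p = 0.01714). That call was lost with upper-quartile scaling (adjusted p = 0.06959) and without OGT-deficient library 3 (0.05662). Slc25a53 was at 0.700 ± 0.203 and 0.666 ± 0.166 CPM and did not pass (adjusted p = 0.8766).

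The 8 carriers that changed at least 2-fold are protein-coding genes on chromosomes 2, 3, 4, 8, 9, 12 and 19 (GENCODE, GRCm38). Slc25a34 lies at chr4:141618824-141623821 (minus strand), Slc25a42 at chr8:70184340-70212305 (minus strand), Slc25a24 at chr3:109123149-109168457 (plus strand) and Slc25a4 at chr8:46206797-46211284 (minus strand). Slc25a12 lies at chr2:71271063-71367749 (minus strand), Slc25a38 at chr9:120110374-120124504 (plus strand) and Slc25a45 at chr19:5877808-5885878 (plus strand), and the position of Slc25a29 is given above.

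Because the strongest changes concern Slc25a34, Slc25a42 and Slc25a24, the bases before their transcription starts are shown, from RefSeq (GRCm38.p6), 5′ to 3′ on the gene's strand, with matches to the CCAAT box (CCAAT or its reverse complement) in capitals. They lie at chr4:141623835-141624084 on the minus strand, chr8:70212306-70212531 on the minus strand and chr3:109122899-109123148 on the plus strand. For Slc25a42, 24 bases that GENCODE places in the transcript are left out.
Slc25a34: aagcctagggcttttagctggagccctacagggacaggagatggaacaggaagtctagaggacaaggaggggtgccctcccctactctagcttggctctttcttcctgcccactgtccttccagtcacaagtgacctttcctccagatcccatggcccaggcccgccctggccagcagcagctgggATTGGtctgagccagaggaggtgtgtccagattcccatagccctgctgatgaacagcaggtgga
Slc25a42: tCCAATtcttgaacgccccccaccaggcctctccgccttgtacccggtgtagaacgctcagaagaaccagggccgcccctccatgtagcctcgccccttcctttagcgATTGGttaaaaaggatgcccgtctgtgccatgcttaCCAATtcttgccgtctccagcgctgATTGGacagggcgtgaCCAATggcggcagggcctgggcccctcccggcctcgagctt
Slc25a24: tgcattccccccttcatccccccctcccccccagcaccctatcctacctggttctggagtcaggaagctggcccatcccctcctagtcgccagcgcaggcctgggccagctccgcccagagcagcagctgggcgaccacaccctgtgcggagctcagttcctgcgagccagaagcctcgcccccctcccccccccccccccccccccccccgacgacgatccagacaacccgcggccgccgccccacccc
The sequence of Slc25a34 holds 1 CCAAT match, 64 bases before the start. That of Slc25a42 holds 5, at 249, 142, 106, 81 and 65 bases before the start, and that of Slc25a24 holds none.

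Over the 250 bases before the RefSeq start, 16 of 36 carriers with a sequence (44.4%) held a CCAAT match on either strand, against 35.9% of 17224 genes. Of the 22 carriers that fell, 17 had a sequence, and 7 of these 17 held a CCAAT match. The E-box CACGTG was found in 6 carriers (16.7%) and in 6.86% of all genes, but in 1 of the same 17. The antioxidant response element TGACNNNGC was found in 6 carriers (16.7%) and in 10.9% of all genes, and the CRE TGACGTCA in 1 carrier, Slc25a36, and in 2.08% of all genes. Matches to the NRF1 palindrome, the ERR motif TCAAGGTCA and the C/EBP-ATF motif TGATGNAAN were in none of the 36 carriers and in 1.06%, 0.308% and 3.06% of all genes. These are matches of letters in a short window and describe no binding.

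The 5 carriers under the filter, which were not tested, had few reads. Slc25a31, the ADP/ATP carrier of the germ line, had 2 to 21 counts per library, and the ornithine carrier Slc25a2 had 0 to 8. Slc25a43 had 6, 2, 2, 0 and 0 counts in WT libraries 1 to 5 and 19, 5, 12 and 5 in OGT-deficient libraries 1 to 4. Slc25a41, an ATP-Mg carrier relative, had 0 to 2, and Slc25a54 had 0 in every library. With no filter 46 carriers were tested, of which 5 rose and 22 fell. Each of Slc25a41, Slc25a54 and Slc25a43 lies beside another carrier: 2056 bases separate Slc25a41 from Slc25a23, 6461 separate Slc25a54 from Slc25a24 and 18448 separate Slc25a43 from Slc25a5.

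Members were also compared within 18 pairs, chosen by shared substrate or by kinship, and 8 pairs changed by different amounts. The log2 ratio between the 2 members in each library (CPM + 0.1) was compared between the groups. For those 8 pairs the groups of ratios were apart, with an exact permutation p of 0.0159 (two-sided), the smallest that 5 against 4 libraries allow, and an adjusted p of 0.03571 over the 18 pairs. With any library left out none of the 18 pairs passed after adjustment, while those 8 stayed at the smallest exact p that the smaller designs allow, 0.0286 for 4 against 4 and 0.0357 for 5 against 3 libraries. The largest differences were in Slc25a23 against Slc25a24, whose log2 ratio went from 7.52 ± 0.42 to 4.75 ± 0.76, and Slc25a34 against Slc25a35, from 2.75 ± 0.17 to 0.33 ± 0.48 (SD over libraries). Slc25a23 and Slc25a24 were the only pair in which both genes were called and moved in opposite directions. The ratio of Slc25a4 to Slc25a5 went up by 1.03 and that of Slc25a16 to Slc25a42 by 1.0006 on the log2 scale. The ratio of Slc25a12 to Slc25a13 fell by 0.52, that of Slc25a10 to Slc25a11 by 0.39, that of Slc25a45 to Slc25a47 by 0.92 and that of Slc25a51 to Slc25a53 by 0.60.

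**Figure D4:**
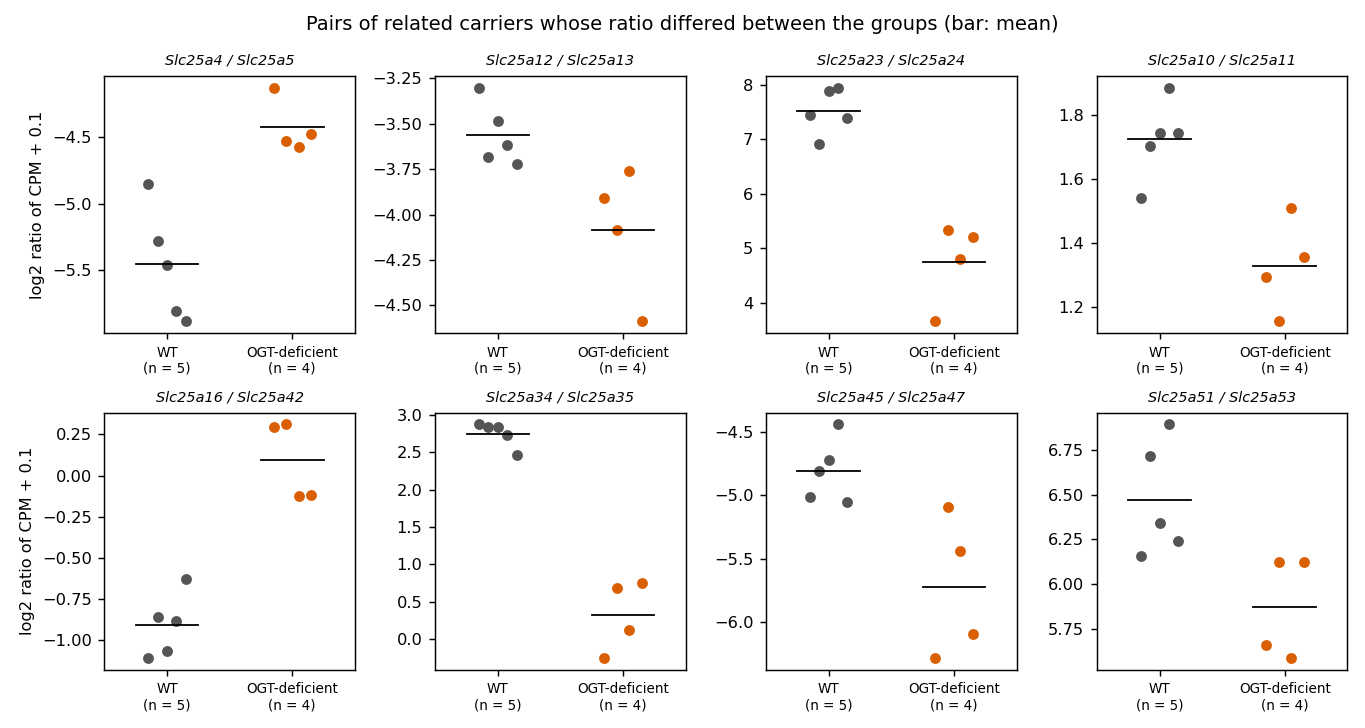
Log2 ratio of CPM + 0.1 between 2 related carriers for the 8 of 18 pairs with an adjusted p under 0.05, with every library as a point and the group mean as a line; each panel has its own axis. The groups are apart in every panel, with the widest difference of means for Slc25a23 against Slc25a24.

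Other mitochondrial membrane proteins and the machinery that inserts carriers were counted in the same way, where 29.4% of all tested genes fell and 31.6% rose. Of 14 tested inner membrane transporters outside the SLC25 family, 8 fell and 4 rose (median -0.46 on the log2 scale). The serine carrier Sfxn1 fell from 93.5 to 33.8 CPM, the ion exchanger Letm1 from 82.4 to 29.9 CPM and the potassium channel subunit Abcb8 from 45.6 to 14.7 CPM. The outer membrane pores Vdac1 and Vdac2 fell from 199 to 134 and from 94.4 to 66.6 CPM, while Vdac3, at 81.1 and 79.0 CPM, did not pass (adjusted p = 0.6687, edgeR). Of 9 tested genes of the TIM22 route, which receives carrier proteins from the cytosol and inserts them into the inner membrane, 7 fell and 0 rose, with a median of -0.28. The receptor Tomm70a fell by 0.53 and the chaperones Timm9 and Timm10 by 0.66 and 0.48 on the log2 scale.

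Complex I, outside the carriers, was lower for 28 of 36 tested nuclear genes and higher for 0, with a median of -0.53, and its subunits Ndufa3 and Ndufv3 fell from 128 to 24.996 and from 78.5 to 33.8 CPM. Ndufv2 fell by 0.93 on the log2 scale. Of 12 genes of mitochondrial mass and biogenesis, 6 fell and 2 rose, with a median of -0.20. The called share of that list, 66.7%, was near the 61.1% of all tested genes (29.4% lower, 31.6% higher). The nuclear receptor Esrra fell from 80.8 to 38.5 CPM and the coactivator Ppargc1b from 18.9 to 8.31 CPM, while the import receptor Tomm20 rose from 79.6 to 120.2 CPM and the coactivator Ppargc1a from 9.97 to 14.3 CPM. The carriers' median of -0.39 lies between those of the biogenesis list and of complex I, and no difference between the lists was tested.

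**Figure D5:**
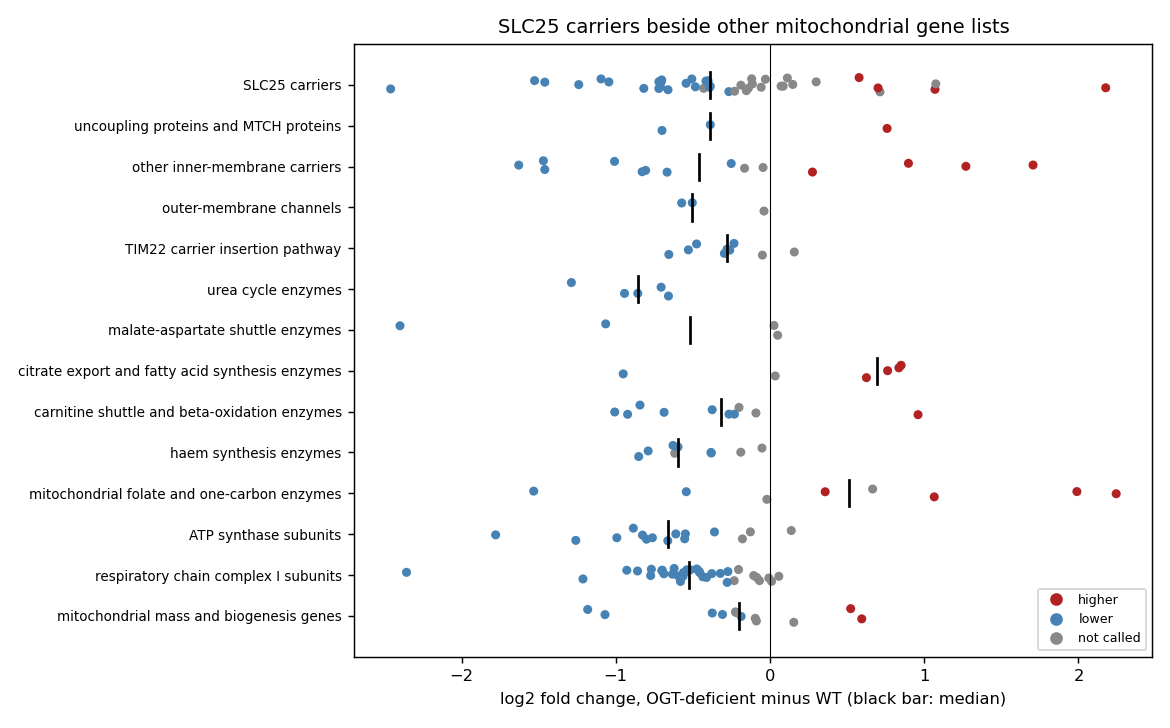
Log2 fold change of OGT-deficient over WT liver for every tested gene of the SLC25 carriers and of 13 lists of related genes, coloured by call, with each list's median as a black bar and a line at 0. The urea cycle and ATP synthase lists have the lowest medians, -0.86 and -0.66, and the citrate and fatty acid synthesis list the highest, 0.69.

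Markers of other cell types and of proliferation were counted as well, where 31.6% of all tested genes rose and 29.4% fell. Of 13 monocyte and macrophage markers 7 rose and 0 fell, with summed levels of 369 to 490 CPM in WT livers and 351 to 606 CPM in OGT-deficient liver. Endothelial markers stood at 398 to 549 and 258 to 471 CPM (1 of 9 higher, 3 lower), and those of T, NK and B cells at 10.3 to 13.4 and 10.1 to 14.8 CPM (1 of 13 higher, 2 lower). All 7 proliferation genes rose, with sums of 8.43 to 33.5 and 72.2 to 98.4 CPM. Of 4 tested neutrophil markers 2 rose and 0 fell, with sums of 1.94 to 5.04 and 2.20 to 9.40 CPM. The part of these cell types in the carriers' values was not tested.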

How the data were processed

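RNA-seq of whole liver gave 9 libraries, 5 WT and 4 OGT-deficient, grouped by the labels; the design gives as many mice as libraries, so each was taken as a mouse. Per the submitters' processing notes, reads were handled with HTSeq 0.9.1 after TopHat2 2.1.0 on build mm10. No annotation release or strand setting is given in the sources used here. The authors deposited whole-number read counts for 24421 gene symbols per library, without normalization. Non-gene summary lines were left out; they held 8.95 to 10.7% (no gene) and 1.78 to 2.17% (several genes) of uniquely aligned reads. All 16 pairs of libraries within a group differed by more than counting noise (chi-square per degree of freedom 23.9 to 135).

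From these counts, edgeR 4.0.16 (R 4.3.3) was run on all 9 libraries with its filterByExpr, TMM factors and quasi-likelihood F test, Benjamini-Hochberg over 14104 genes, threshold 0.05, prior count 0.125 for log2 fold changes. The script was tested on simulated data. Pair ratios used an exact two-sided permutation test. The values of 3 counts cover counting error only. Lengths, overlaps and shared 50-base stretches came from GENCODE mouse release 21 (GRCm38), and promoters from RefSeq. Alternatives were DESeq2 1.42.0, limma 3.58.1 voom, upper-quartile scaling, other filters, a replicate block, another pseudocount and leaving out each library.

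The values of 1 tested carrier are not reported here, though it is in all counts and sums. The members and gene lists were chosen with earlier results of these data known. Full values are given for members with a called change of at least 2-fold, the 5 most abundant per kilobase in WT, and pairs that moved in opposite directions; the other members by means. From each related list up to 3 genes with the smallest p are named, with any that moved against the rest where 3 or fewer did. Values by library of Slc25a13 and Slc25a30, and Alas2, Klf1, Car1 and Ass1, were added after they were seen.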

Additional observations from a re-analysis of the deposited data

Results flagged for a closer look

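Each group's 4 or 5 values were examined for a library that stood apart from the rest, over 84 groups of carrier values, where chance alone gives about 1 in 20 groups. There were 2. For Slc25a4 in OGT-deficient liver, library 1 was the highest at 24.7 CPM, with the next at 19.4 CPM and a gap of 0.845 of the whole range. For Slc25a38 in OGT-deficient liver, library 1 was the lowest at 8.07 CPM, with the next at 10.2 CPM and a gap of 0.958 of the range. Both genes stayed called without that library.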

How the results depend on the processing

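Of the 26 called carriers, 23 kept direction and call under all 17 alternatives, and Slc25a21, Slc25a32 and Slc25a48 did not. With upper-quartile factors 7 carriers rose rather than 4, and the summed carrier difference (OGT-deficient minus WT) was -599.73 rather than -982.24 CPM; it was -1113.3 to -879.6 CPM with each library left out. No pair was called with any library left out (0 in each case, against 8; adjusted p of those 8 then 0.05143 to 0.08036).

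Signs changed for uncalled values only. With upper-quartile factors the log2 fold change was 0.0012 for Slc25a1, 0.0050 for Slc25a11, 0.0896 for Slc25a15, 0.0657 for Slc25a53 and 0.0837 for Vdac3. With each library left out the range was -0.0888 to 0.0205 for Slc25a15, -0.583 to 0.0879 for Slc25a30, -0.0344 to 0.292 for Slc25a33, -0.131 to 0.252 for Slc25a35, -0.228 to 0.127 for Slc25a53 and -0.0271 to 0.0966 for Mdh2. The difference in the ratio of Slc25a14 to Slc25a30 was 0.0170 with a pseudocount of 1 CPM, and -0.420 to 0.227 with each library left out. The causes were not tested.

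Replicate numbers did not pair the libraries (same-number correlations -0.1029 to 0.1044). With the replicate block, 7869 genes were called, 24 carriers among them, and Slc25a53 was at 0.11. Low counts limit Slc25a18, Slc25a27, Slc25a35 and Slc25a53.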
